A study of Homo sapiens with 8 samples.

Results

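IGF2BP1 binding sites in 2 mRNAs, CPS1 and TM7SF3, were followed in H1299 cells with and without the inhibitor AVJ16. Both genes were chosen by their measured values, because each holds one of the largest increases in enrichment at a site found with both treatments. The members are all peaks on the strand of either gene, 38 of the 44434 peaks in the deposited lists: 6 CPS1 and 12 TM7SF3 peaks with DMSO, and 3 CPS1 and 17 TM7SF3 peaks with AVJ16. The enrichments that chose the genes are given as a description, without a test.

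H1299 is a human lung carcinoma cell line, labelled wild type here, and was grown on 2 plates per treatment and prepared in 2 batches, which came from a single thaw. It was treated for 24 h with 1.5 µM AVJ16, a small molecule that targets IGF2BP1, or with 0.01% DMSO as vehicle, and crosslinked with 400 mJ/cm2 of UV light at 254 nm. The eCLIP assay sequences the RNA that stays crosslinked to a protein after its immunoprecipitation (IP), together with a size-matched input (SMInput) that skips the antibody. Each treatment had 2 IP and 2 SMInput libraries, 8 in all, and 1 list of peaks per treatment was deposited that merges its replicates. A peak is given with its log2 fold enrichment, IP over SMInput, and its −log10 p. No value per replicate and no read count is in the lists, so the depth is unknown and no difference below has an error or a test. The DMSO list holds 22311 peaks and the AVJ16 list 22123, with a median log2 fold enrichment of 3.63 and 3.61 and a lowest value of 3.00 in both. Weaker sites are not listed. Both lists are labelled as IDR output of the 2 replicates, so a site that differed between replicates may be missing too. The cells were lysed in bulk, so a site bound in more cells and a site bound more often per cell cannot be told apart.

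IGF2BP1 is an RNA-binding protein of embryonic tissue that many tumours express again. It binds mRNAs through RRM and KH domains, mostly in 3’UTRs, and is known to protect bound transcripts from decay. CPS1 is the mitochondrial enzyme that makes carbamoyl phosphate from ammonia and bicarbonate at the entry of the urea cycle, and is known from liver and from some lung carcinomas. TM7SF3 is a multi-pass membrane protein that is known to dampen the unfolded protein response. The site with the largest increase lay in the 3’UTR of CPS1 and in the coding sequence (CDS) of TM7SF3.

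The sequences at these sites are shown as RNA, 5′ to 3′, read from GRCh38. For CPS1, on the plus strand of chromosome 2, 30 nt are given from the site with the largest increase, at chr2:210678218-210678247, and 30 nt from the site with the largest decrease, at chr2:210678488-210678517. Each stretch is the one of its length with the most matches to the motifs below, so the capitals are not representative of the whole peak. The coding peak at chr2:210663143-210663192 is given whole. Capitals mark GGAC or CAU followed by A, C or U, both known as sequence preferences of IGF2BP1.
CPS1 3’UTR, largest increase: guauuuuugguGGACuaggcuugccuaugu
CPS1 3’UTR, largest decrease: CAUUcucaccCAUUuggcuaauccaggaau
CPS1 exon 33, DMSO list alone: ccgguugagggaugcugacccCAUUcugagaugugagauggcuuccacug

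For TM7SF3, on the minus strand of chromosome 12, the DMSO peaks on both sides of the junctions after exon 6 (chr12:26990449-26990540 and chr12:26982844-26982857) and after exon 7 (chr12:26982773-26982806 and chr12:26980610-26980645) are given, since the differences with AVJ16 run in opposite directions across these junctions. Capitals mark the part that the paired AVJ16 peak covers. The last base of the exon 6 peak lies 1 nt past the exon.
TM7SF3 end of exon 6, largest increase: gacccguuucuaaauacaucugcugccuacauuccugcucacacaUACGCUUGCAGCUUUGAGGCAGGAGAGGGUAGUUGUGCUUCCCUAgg
TM7SF3 start of exon 7: AGAGUGUCUUCCaa
TM7SF3 end of exon 7, largest decrease: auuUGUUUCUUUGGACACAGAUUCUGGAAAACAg
TM7SF3 start of exon 8: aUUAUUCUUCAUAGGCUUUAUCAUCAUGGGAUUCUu
A further peak, in exon 11 with AVJ16 (chr12:26975538-26975618), is the second most enriched of the gene and has GGAC or CAU followed by A, C or U in capitals.
TM7SF3 exon 11, AVJ16 list: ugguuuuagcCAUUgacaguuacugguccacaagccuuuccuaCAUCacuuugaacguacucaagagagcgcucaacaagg

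CPS1 (ENSG00000021826.18) spans chr2:210477682-210679107. Its MANE Select transcript has 38 exons and 1500 codons before the stop, with a 3’UTR of 1122 nt that lies whole in exon 38. With DMSO, 5 of the 6 peaks lay in this 3’UTR and 1 in the CDS of exon 33, over codons 1316 to 1333. With AVJ16 all 3 peaks lay in the 3’UTR. The coding peak was enriched by 3.31 on the log2 scale with a −log10 p of 3.09, close to the lowest listed −log10 p of 3.01, and had no AVJ16 peak over it.

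The 3’UTR peaks fell into a site near the stop codon, which held the most enriched CPS1 peak of each list, and sites downstream. With DMSO the site near the stop codon consisted of 2 touching peaks. The first of them, 120 to 232 nt after the stop codon, had a log2 fold enrichment of 4.47 (−log10 p 23.8). The second, 233 to 317 nt after the stop codon, had 3.59 (−log10 p 13.8), below the 3.92 and 3.75 of DMSO peaks further downstream. With AVJ16 a single peak of 258 nt, 77 to 334 nt after the stop codon, covered both and reached 5.92 (−log10 p 31.7), a 60.4-fold enrichment over input. It was the most enriched CPS1 peak of either list and ranked 59 of all AVJ16 peaks.

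Set against this peak, the second DMSO peak was lower by 2.33 on the log2 scale (a ratio of 5.02, AVJ16 over DMSO) and the first by 1.45 (a ratio of 2.73). These 2 differences share 1 AVJ16 value and do not count separately. Weighting the DMSO peaks by length gave 4.09 for the site, over 198 nt, and a difference of 1.83. Where an overlap of 50% of both peaks was required, neither pair was formed and the largest CPS1 difference was 0.59. The AVJ16 peak was unusually long, as only 15 AVJ16 peaks had this length or more and the median was 60 nt. Of the 59 AVJ16 peaks at least as enriched, itself included, 6 had a lower −log10 p, and their median was 74.

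Downstream the differences were smaller and of both signs. The peak at 493 to 541 nt had 3.92 with DMSO and its partner at 503 to 556 nt had 3.26 with AVJ16, a difference of −0.66. These were weak peaks in both lists, with a −log10 p of 5.35 and 4.35. The last site, at 867 to 1001 nt with DMSO and 839 to 953 nt with AVJ16, had 3.75 and 4.34, a difference of 0.59. The DMSO peak at 364 to 432 nt (3.19) had no partner.

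**Figure D1:**
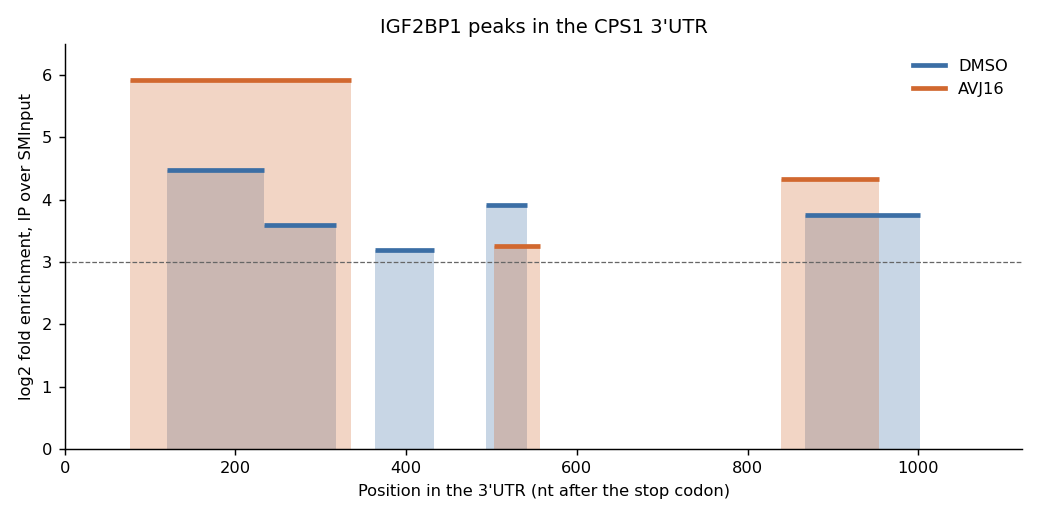
Peaks in the CPS1 3’UTR, by position in nt after the stop codon (x axis) and log2 fold enrichment of IP over SMInput (y axis), with DMSO in blue and AVJ16 in orange and the lowest listed value of 3.00 dashed. Each bar is 1 peak of a list that combines both replicates, so there are no error bars. A single AVJ16 peak at 5.92 spans the 2 DMSO peaks at 4.47 and 3.59.

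TM7SF3 (ENSG00000064115.11) spans chr12:26971579-27014434. Its MANE Select transcript has 12 exons, 570 codons before the stop and a 3’UTR of 2386 nt. Whereas 17.3% of all DMSO peaks and 20.3% of all AVJ16 peaks lay in a CDS, 10 of the 12 TM7SF3 peaks with DMSO and 16 of the 17 with AVJ16 did so. Only 55 of the 1343 genes with a coding peak had more of them with DMSO, and 29 of 1373 with AVJ16. Touching peaks count separately in these numbers. Joined, all TM7SF3 peaks formed 12 sites with DMSO and 11 with AVJ16. The coding peaks lay in exons 2, 3, 6 to 8 and 10 to 12 with DMSO, and in exon 9 as well with AVJ16. The 2 peaks with DMSO and the 1 with AVJ16 in the 3’UTR lay within 285 nt of the stop codon.

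The largest difference lay at the end of exon 6. With DMSO a peak of 92 nt over codons 260 to 290 had a log2 fold enrichment of 3.14 (−log10 p 12.5), with 11.8% of the list below it. With AVJ16 this stretch held 2 touching peaks. The upstream one, 44 nt over codons 260 to 274, had 3.79 (−log10 p 16.3). The downstream one, 45 nt over codons 275 to 289, had 5.42 (−log10 p 16.5), a 42.7-fold enrichment that ranked 279 among AVJ16 peaks. The difference at this peak was 2.28 (a ratio of 4.86). Averaged over the bases the AVJ16 peaks share with the DMSO peak it was 1.48, from 3.14 to 4.61. With an overlap of 50% of both peaks required, this pair was not formed and the largest TM7SF3 difference was 0.75. Of the 279 AVJ16 peaks at least as enriched, itself included, 23 had a lower −log10 p, and their median was 49.7. All matches to CAU followed by A, C or U in the DMSO peak, 3 in number, began upstream of the 45-nt AVJ16 peak, which held 0 of them whole and 0 of GGAC. The last match, CAUA, lies across the edge of that peak, with its UA inside.

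The other coding sites differed less. In exon 11 the enrichment was 4.21 with DMSO and 4.96 with AVJ16, a difference of 0.75, or 0.46 when averaged over both AVJ16 peaks on the site. At the start of exon 8 it was 3.87 and 4.47, a difference of 0.60. Both sites with a lower value beyond 0.5 were in the same mRNA, namely the end of exon 7, with 4.57 and 4.01 (a difference of −0.56), and the start of exon 3, with 4.30 and 3.79 (−0.51). The exon 3 peak had the highest −log10 p of the gene in both lists, 30.7 and 32.6.

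The remaining shared sites differed by at most 0.5 and were lower with AVJ16. Exon 2 had 3.65 and 3.37, the start of exon 7 had 3.54 and 3.15, and exon 10 had 3.27 and 3.05. In exon 12 the values were 3.91 and 3.84 at its start and 3.60 and 3.53 further on. In the 3’UTR they were 3.69 and 3.62, 220 to 277 nt after the stop codon with DMSO. A second 3’UTR peak with DMSO, 94 to 189 nt after the stop codon, had 3.51 and no partner. AVJ16 peaks without a partner lay at the start of exon 9 (3.52) and at the start of exon 11 (3.34). AVJ16 peaks that overlapped a DMSO peak without being its main partner had 4.12 in exon 8, 4.08 at the end of exon 11 and 3.39 in exon 12. In exons 8 and 12 these met the DMSO peak only at its edge, and most of their length had no DMSO peak over it. In exon 8 the AVJ16 peak covered codons 331 to 346 and the DMSO peak codons 319 to 331. In exon 12 they covered codons 501 to 531 and 484 to 504.

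**Figure D2:**
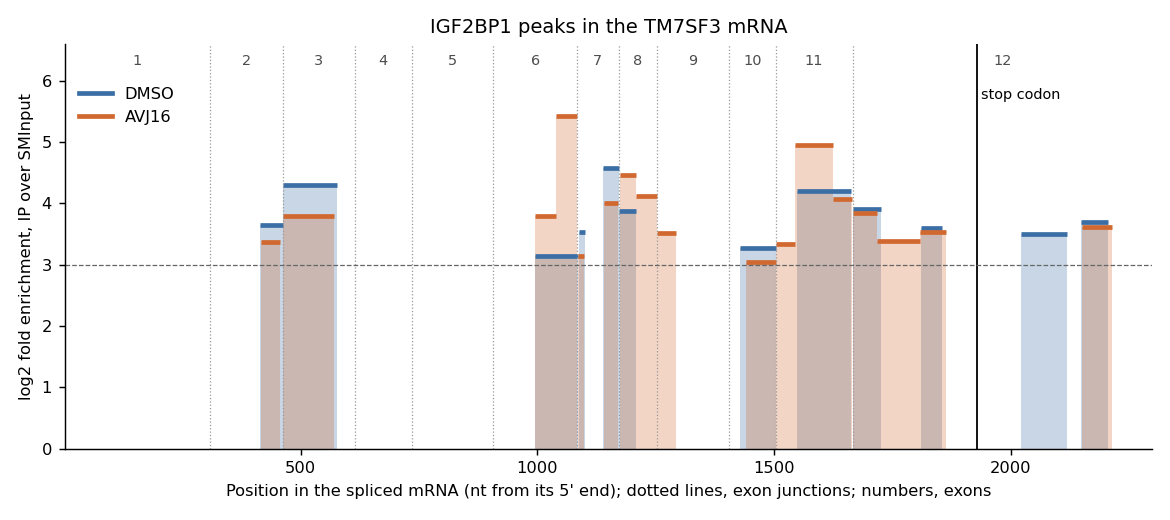
Peaks in the TM7SF3 mRNA, by position in nt from the 5′ end of the spliced transcript (x axis) and log2 fold enrichment of IP over SMInput (y axis), with DMSO in blue and AVJ16 in orange. Dotted lines are exon junctions, the solid line is the stop codon, the dashed line is the lowest listed value of 3.00, and the distal 3’UTR without peaks is not drawn. Peaks abut at several junctions, and the AVJ16 peak at the end of exon 6 stands at 5.42 over a DMSO peak at 3.14.

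In the spliced mRNA many TM7SF3 peaks were neighbours. With DMSO, 9 of the 10 coding peaks had an end within 5 nt of an exon junction, and with AVJ16 11 of 16. Among all coding peaks on a MANE Select transcript the share was 32.6% with DMSO (95% Wilson interval 31.1 to 34.1, counting error only) and 34.6% with AVJ16 (33.2 to 36). These shares were not matched for exon length, and a peak in a short exon has an end near a junction more readily. Peaks were present on both sides at 4 of the 5 TM7SF3 junctions with such a peak end for DMSO, and at 5 of 6 for AVJ16. Over all transcripts both sides had a peak at 29.3% of 973 such junctions with DMSO and 28.7% of 1218 with AVJ16. The peaks of both lists were then pooled, and those at most 10 nt apart on the mRNA were joined. This left 6 TM7SF3 sites, of which 4 spanned exons 2 and 3, 6 and 7, 7 to 9, and 10 to 12. The part in exon 9 and the link between exons 10 and 11 came from AVJ16 peaks alone. CPS1 had 5 sites, 0 of them across a junction.

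The differences had opposite signs across the junctions of exons 6 and 7, of exons 7 and 8 and of exons 11 and 12. At exons 6 and 7 the upstream peak was higher with AVJ16 by 2.28, while the downstream peak, which starts 2 nt into exon 7, had a difference of −0.40. At exons 7 and 8 the differences were −0.56 upstream and 0.60 downstream. At exons 11 and 12 they were 0.75 and −0.07, where the AVJ16 peak that reaches the junction was not the main partner and had 4.08, and at exons 2 and 3 both were negative, −0.29 and −0.51. Among the 178 junctions of all transcripts with a shared peak on both sides, the median distance between the 2 differences was 0.34, and 40.4% had opposite signs. The junction of exons 6 and 7 of TM7SF3 had the largest distance, 2.68, which follows in part from the choice of the gene. LGR4 came next with 1.83. The TM7SF3 distance depends on the pairing. Averaged over shared bases, the exon 6 difference was 1.48, and with an overlap of 50% of both peaks required its pair was not formed. As length-weighted sites, exons 6 and 7 had 3.19 with DMSO and 4.43 with AVJ16, a difference of 1.24. Exons 2 and 3 differed by −0.44, exons 7 to 9 by −0.19 and exons 10 to 12 by −0.04. Each mean is over the peaks of its own list. At exons 7 to 9 and 10 to 12 the AVJ16 peaks covered more bases than the DMSO peaks. They included peaks without a partner, in exon 9 (3.52) and at the start of exon 11 (3.34). The differences of −0.19 and −0.04 therefore do not compare the same bases.

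**Figure D3:**
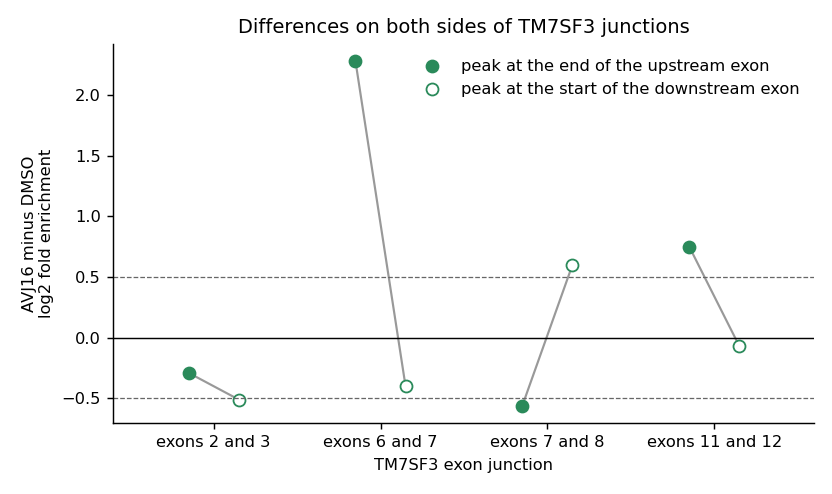
AVJ16 minus DMSO log2 fold enrichment (y axis) of the shared peaks on both sides of 4 TM7SF3 exon junctions (x axis), with filled points for the peak at the end of the upstream exon and open points for the peak at the start of the downstream exon. Dashed lines mark 0.5 in either direction, and each point is a difference of 2 combined lists without error. At exons 6 and 7 the points stand at 2.28 and −0.40, and at exons 7 and 8 at −0.56 and 0.60.

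CPS1 had 4 shared DMSO peaks and TM7SF3 11. A difference above 0.5 was found at 3 of 4 in CPS1 and 3 of 11 in TM7SF3, beside 12.6% of all 14759 shared peaks. The 3 in CPS1 include the 2 that share 1 AVJ16 value, and with each peak used once the count was 2 of 3. A difference below −0.5 was found at 1 of 4 and 2 of 11, beside 20.1% of all, and the 2 in TM7SF3 became 0 with differences centred on the median of all shared peaks. Since the genes were chosen on this contrast, nothing is read from these counts. The median difference was 1.02 in CPS1, −0.08 in TM7SF3 and −0.06 over all shared peaks, whose standard deviation was 0.56. With an overlap of 50% of both peaks required, which left 2 CPS1 pairs, the CPS1 median was −0.03, and with each peak used once it was 0.59. The difference was below 0 at 8 of the 11 shared TM7SF3 peaks, beside 55.3% of all shared peaks, and 3 of these 8 lay within 0.1 of the median of all. DMSO peaks without an overlapping AVJ16 peak were 2 of 6 in CPS1 and 1 of 12 in TM7SF3, beside 33.8% of all DMSO peaks. AVJ16 peaks without an overlapping DMSO peak were 0 of 3 and 2 of 17, beside 29.2% of all.

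**Figure D4:**
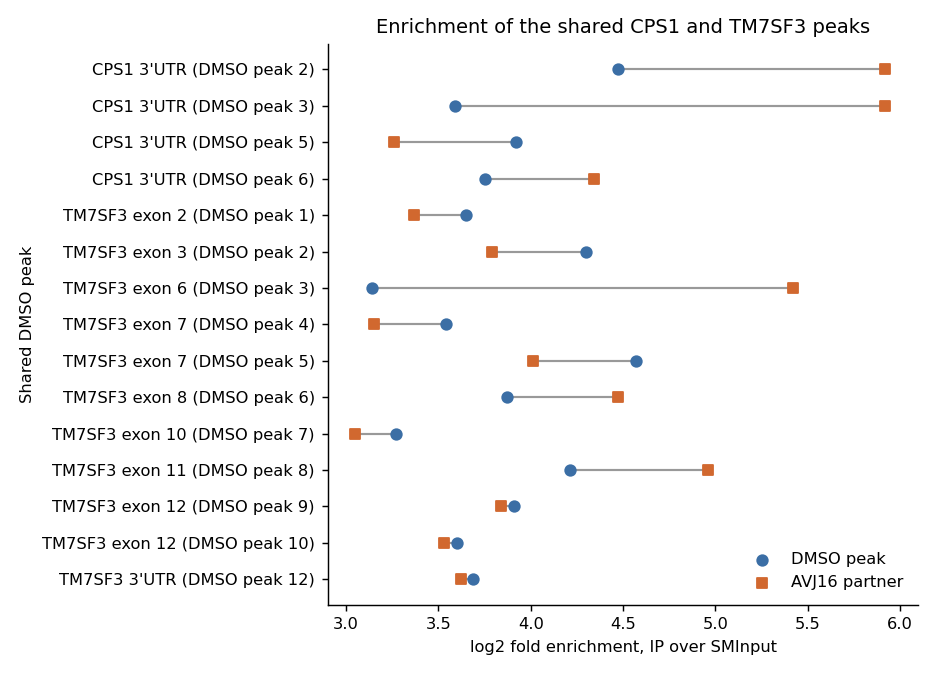
Log2 fold enrichment of IP over SMInput (x axis) at each shared DMSO peak of CPS1 and TM7SF3 (y axis), as blue circles for the DMSO peak and orange squares for the AVJ16 peak that overlaps it most. Each point is 1 value of a list that combines both replicates. The first 2 CPS1 peaks share the AVJ16 value of 5.92, and the exon 6 peak of TM7SF3 goes from 3.14 to 5.42.

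Ranked by the largest difference of each of 3602 genes, CPS1 ranked 2 and TM7SF3 ranked 3. SC5D, a sterol desaturase of cholesterol synthesis, ranked just above with 3.34 and 5.68, a difference that is also 2.33 after rounding. APOOL, a protein of the inner mitochondrial membrane, ranked just below with 3.06 and 5.18, a difference of 2.13. Peak ends differed in all 4 pairs, with 59 nt against 167 nt in SC5D, 85 nt against 258 nt in CPS1, 92 nt against 45 nt in TM7SF3 and 78 nt against 48 nt in APOOL. Of all shared DMSO peaks, 16% had a partner of at least 2-fold different length, of which 13.9% were higher by over 0.5, and the rest 12.4%. The largest difference among peaks that overlapped 1 to 1 was 2.05.

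**Figure D5:**
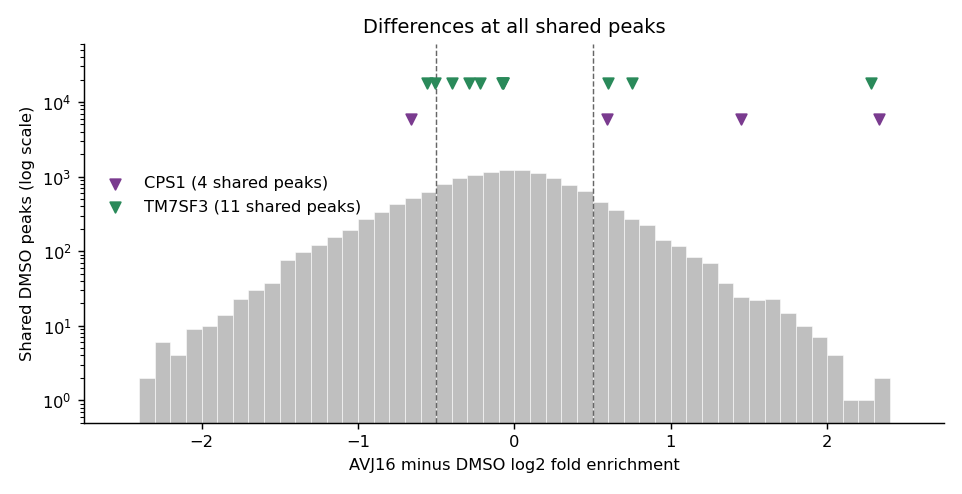
AVJ16 minus DMSO log2 fold enrichment (x axis) of all 14759 shared DMSO peaks as a histogram (y axis, number of peaks on a log scale), with the 4 CPS1 and 11 TM7SF3 differences as triangles above it, whose height has no meaning. Dashed lines mark 0.5 in either direction. The triangles at 2.33 and 2.28 lie at the right end of the distribution, and most TM7SF3 triangles lie near the median of −0.06.

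The genes most like each in the pair of its largest and lowest difference, among genes with a number of shared peaks within 2 of its own, were found by their distance in log2 units. For CPS1 they were APOOL (distance 0.21), a gene listed as ENSG00000279453 (0.41) and PLEKHA8 (0.46), of 1826 genes. For TM7SF3 they were the zinc transporter SLC39A9 (0.40), the mitochondrial carrier SLC25A23 (0.41) and the secreted glycoprotein STC2 (0.48), of 248. Their median differences were −0.14, 0.20 and −0.03, and 0.48, 0.25 and 0.50. The medians of all 3 genes nearest to TM7SF3 were therefore above its own −0.08.

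Among 14 other genes of the urea cycle, its substrates and pyrimidine synthesis, 7 had a DMSO peak, 6 an AVJ16 peak and 6 both. Their 29 shared peaks differed by −0.56 to 0.80, with a median of −0.12, and 2 were higher and 2 lower by over 0.5, beside 12.6% and 20.1% of all shared peaks. The other enzymes of the urea cycle (OTC, ASS1, ASL and ARG1) and NAGS, which makes the activator of CPS1, had no peak in either list, and neither had UMPS. The lists hold no RNA level, so an mRNA that is not bound and one that is not expressed cannot be told apart. Glutamine synthetase GLUL was the most enriched of the list, with a best peak of 5.47 and 5.50. The ornithine carrier SLC25A15 had 7 DMSO and 6 AVJ16 peaks and differences from −0.56 to 0.77. Glutamate dehydrogenase GLUD1 had 8 and 12 peaks, with a largest difference of 0.80. CAD, which starts pyrimidine synthesis with its own carbamoyl phosphate synthetase, had 3 and 2 peaks that differed by −0.21 to 0.09. The arginase ARG2 had 1 and 2 peaks, the aspartate-glutamate carrier SLC25A13 had 3 and 1, and DHODH had 1 with DMSO alone.

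Among 24 other genes of multi-pass membrane proteins and the unfolded protein response, 14 had a DMSO peak, 15 an AVJ16 peak and 12 both. Their 62 shared peaks differed by −1.03 to 1.09, with a median of 0.02, and 10 were higher and 2 lower by over 0.5, beside 12.6% and 20.1% of all shared peaks. The sensor ATF6 had 20 DMSO and 15 AVJ16 peaks and both the largest and the lowest difference. SEL1L, of endoplasmic reticulum degradation, had 16 peaks in each list and the most enriched peaks, 5.32 and 5.81. The transcription factor XBP1 had 9 peaks in each list, with differences from −0.27 to 0.69. EDEM1 had 0.53 and 0.56 at its 2 shared peaks, the co-chaperone DNAJB9 0.89 and the sensor ERN1 0.61 at 1 each. Of the membrane proteins, GPR180 reached 1.04 and GPR107, with 7 and 17 peaks, 0.61. TMEM87B, CALR and HERPUD1 had peaks with AVJ16 alone (4, 4 and 1), and TM7SF2 and ATF4 with DMSO alone (1 each). WLS (4 and 5 peaks), PDIA6 (8 and 6) and TMEM181 (3 and 2) had no shared peak beyond 0.5. TMEM87A had 1 peak in each list, and these did not overlap. HSPA5, HSP90B1, PDIA4, EIF2AK3, DDIT3 and GPR108 had no peak, and whether their mRNAs were expressed is not known from the lists. TM7SF3 is the one gene of this list with over 7 coding peaks in either list.

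Sequence content was counted in windows of 100 nt around each peak centre, on the transcribed strand. The windows are genomic, so near an exon end, where many TM7SF3 peaks lie, they also hold intron sequence. CAU followed by A, C or U was present at 11 of 12 TM7SF3 windows with DMSO and 15 of 17 with AVJ16, and at 4 of 6 and 3 of 3 CPS1 windows, beside 77.4% and 77.7% of all windows. GGAC was present at 5 of 12 and 6 of 17 TM7SF3 windows and at 2 of 6 and 1 of 3 CPS1 windows, beside 21.7% and 21.9% of all windows. The GGAC share was 26.6% and 26.3% around CDS peaks, which most TM7SF3 peaks are. Around 3’UTR peaks, which most CPS1 peaks are, it was 19.2% and 20.2%. UCCAG was in 1 of 12 and 2 of 17 TM7SF3 windows and in 1 of 6 and 1 of 3 CPS1 windows, beside 15.3% in both lists. CCNGUU was in 1 of 12 and 1 of 17 and in 2 of 6 and 1 of 3, beside 9.78% and 9.82%. ACACCC and UUUCCGAA were in 0 windows of either gene, beside 2.26% and 0.0359% of all windows with DMSO. Windows of neighbouring peaks overlap, so they do not count separately. The most enriched AVJ16 peaks of the 2 genes differed in base composition. The 258-nt CPS1 peak was 42.2% U and 32.9% G or C, and the 45-nt TM7SF3 peak was 28.9% U and 53.3% G or C. They lie in different regions, a 3’UTR and a CDS. The median G or C content of all AVJ16 peaks was 42.1% in 3’UTRs and 47.3% in CDS.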

How the data were processed

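Peaks were defined by the authors with CLIPper on STAR alignments of cutadapt-trimmed, deduplicated reads from outside repeats, with versions not given in the sources used here. Both values were computed by the authors in each peak from IP and paired SMInput reads and deposited per treatment, as a −log10 p (at most 400) and as a log2 fold enrichment. The lists were normalized separately and combine replicates, so leaving out a replicate was not possible.

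The labels name hg38, 0 peaks lay past a chromosome end, and the sequences of both transcripts matched GENCODE release 44. A peak belonged to a gene it overlapped on the same strand. A peak over several regions was counted as CDS first, then 3’UTR. For each DMSO peak the partner was the AVJ16 peak sharing most bases (at least 1 nt), the lower start first in ties, and differences beyond 0.5, the limit in the study’s methods, were counted. Motifs were searched in genomic windows on the transcribed strand alone, and may overlap each other. Python 3.11.15 and matplotlib 3.10.9 were used, and pairing and transcript mapping were tested on simulated data.

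The genes named are the members, those ranking next to them, the 3 most like each, and both pathway lists, of which 2 genes are counted but not reported here. Members and lists were chosen with earlier results of these data known. Joining on the mRNA (10 nt), the exon ends (5 nt), the comparison across junctions, peak lengths and averaging over shared bases were chosen after seeing the data, as was naming LGR4. No difference was tested, since the interaction test of the methods needs reads per replicate. The alternatives were stricter thresholds, joined peaks, other pairings, centring and an overlap with exons.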

Additional observations from a re-analysis of the deposited data

How the results depend on the processing

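Of 114 alternative values, 90 stayed near the value reported (log2 values within 0.1, counts within 1.5 times, shares of all shared peaks within their 95% Wilson interval), 22 moved and 2 changed sign. The largest CPS1 difference of 2.33 became 1.45 when pairing started from the AVJ16 peaks, when each peak was used once and when touching peaks were joined at their highest value, and 1.83 with joined peaks weighted by length. The median CPS1 difference became 0.59 under all 4 of these settings. With an overlap of 50% of both peaks, the pairs of the largest differences were no longer formed: CPS1 kept 2 shared peaks, with a largest difference of 0.59, 1 above 0.5 and a median of −0.03, and TM7SF3 had a largest difference of 0.75. Where peaks of either list needed a −log10 p of 5 or more, the weak CPS1 pair dropped out, which left a lowest difference of 0.59, a median of 1.45 and 0 pairs below −0.5. Joining touching peaks left 11 TM7SF3 sites with AVJ16 and 12 with DMSO, so the higher AVJ16 count did not hold. Weighting joined peaks by length gave TM7SF3 a largest difference of 1.48, a median of −0.22 and 1 site above 0.5, and averaging over shared bases, an alternative added after seeing the data, also gave 1.48. Centring on the median of all differences left 0 TM7SF3 peaks below −0.5, and changed the background to 15.1% higher and 17.4% lower. No paired analysis was possible because each list combines both replicates. Depth is unknown, so how precisely each enrichment is known cannot be given.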
